A study of Mus musculus with 4 samples.

Results

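Chemokines are small secreted proteins that guide the movement of leukocytes, and chemokine receptors are the G protein-coupled receptors on which they act. Of 26214 gene symbols in the count tables, 62 carry the name of a chemokine (40 genes) or of a chemokine receptor (22 genes), and these were described in colon tumours of 2 groups of mice. Members were taken by symbol alone: the Cxcl and Ccl ligands, Cx3cl1 and Xcl1, the receptors Cxcr1 to Cxcr6, the Ccr series, Cx3cr1 and Xcr1, and the atypical receptors Ackr1 to Ackr4. The symbols Pf4 and Ppbp, which encode CXC chemokines under older names, fall outside the rule. Of the 62 members, 53 had enough counts to be tested and 9 did not. The untested members were Ccl19, Ccl21d and Ccl26, with 0 counts in all libraries (up to 3 counts, or 0.108 to 0.116 CPM, remain possible in a library), and Ccl1, Ccr3, Cxcl11, Cxcl15, Cxcl17 and Xcl1, with few.

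All 4 libraries came from polyadenylated RNA of colon tumours raised in the azoxymethane and dextran sulfate sodium model, in which a mutagen is combined with repeated chemical injury of the gut lining. The groups are labelled Gsk3b IEC+/+ and Gsk3b IEC-/-, with 2 libraries each, and the series title places the loss of GSK3B, a kinase that restrains Wnt signalling by phosphorylating beta-catenin, in the intestinal epithelium. The labels used here name neither the Cre driver nor the strain, age, sex or sampling time, and do not say that each library is its own mouse. The p-values therefore measure the spread between these samples alone, and that spread may be technical. Total counts were 25472503 to 27218515 per library. Levels are given in CPM, the counts per 1000000 of the library size after TMM scaling, with replicates 1 and 2 of a group in that order. Gsk3b itself had 170 and 157 CPM (IEC+/+) and 152 and 149 CPM (IEC-/-), a difference that did not pass the test (log2 fold change -0.12, SE 0.12, edgeR adjusted p = 0.681), so its count does not check the labels. In bulk tissue, fewer cells of a type and less RNA per cell cannot be told apart.

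The family divides by the spacing of its first cysteines into CXC, CC, CX3C and XC chemokines. CXC ligands of Cxcr2, such as Cxcl1, Cxcl2 and Cxcl5, draw neutrophils. Those of Cxcr3 (Cxcl9, Cxcl10 and, where functional, Cxcl11) are induced by interferons and draw activated T and NK cells. CC ligands act mainly on monocytes, T cells, dendritic cells and eosinophils, while in the gut Ccl20, Ccl25 and Ccl28 are made by the epithelium and direct lymphocytes and plasma cells to the mucosa.

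No single chemokine or receptor gene passed the test between the groups, and the 2 IEC-/- libraries differed widely in many of them. By the quasi-likelihood test of edgeR, 0 of 53 members were called at an adjusted p under 0.05 (Benjamini-Hochberg over all genes), beside 147 of 16637 genes, or 0.884%. At an unadjusted p under 0.05, 5 members were higher in IEC-/- (among them Cxcr6, Cxcl13, Cx3cr1 and Ccl5; background 7.50% of all genes) and 2 lower (Ccl28 and Cx3cl1; background 9.12%). Ccl28 was the 1 member called by DESeq2 (7.83% of all genes called) and by the exact test of edgeR (5.30%), and limma-voom called 0 members, with 4 at an unadjusted p under 0.05. Group means were higher in IEC-/- for 31 members and lower for 22, with a median log2 fold change of 0.16, beside 0.01 over all genes tested. The median of the family was -0.02 by limma-voom and -0.24 without IEC-/- replicate 2. Both IEC-/- libraries lay above both IEC+/+ libraries for 8 tested members and below them for 6, where 24.0% and 24.1% of all genes did so.

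**Figure D1:**
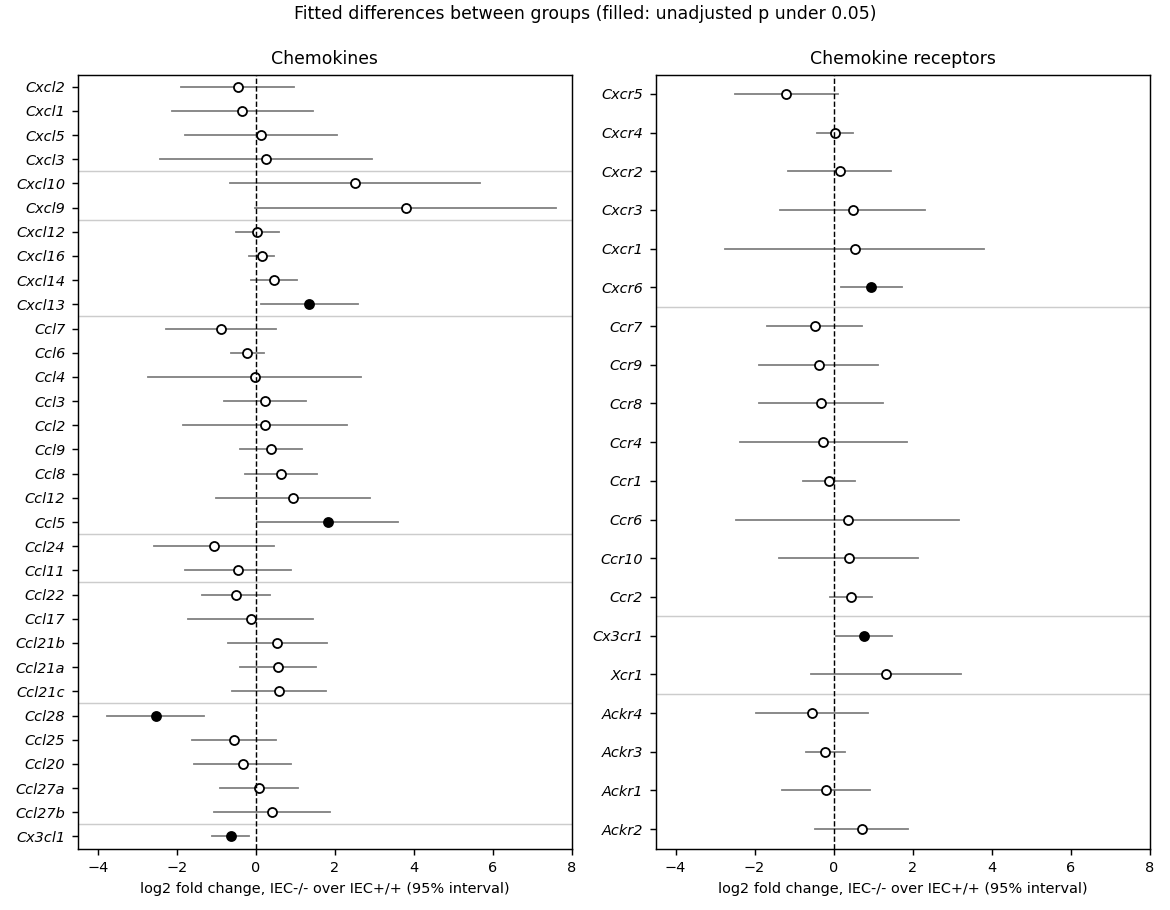
Fitted log2 fold change (IEC-/- over IEC+/+, horizontal axis) with its 95% interval (grey line) for 52 of the 53 members tested, ligands on the left and receptors on the right, separated by role. Filled points mark the 6 of these at an unadjusted p under 0.05; the interval of Cxcl9, -0.03 to 7.60, is far wider than that of Ccl28, -3.76 to -1.30.

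The spread between libraries of a group was larger for these genes than for genes at large. Between the IEC-/- libraries the median absolute log2 difference was 0.91 over the 53 members and 0.24 over all genes tested. Among genes averaging at least 5 CPM it was 0.91 over 31 members and 0.20 over 12595 genes. Between the IEC+/+ libraries it was 0.52 over the members and 0.20 over all genes. IEC-/- replicate 2 exceeded replicate 1 by over 2-fold for 18 members (background 6.07%), and replicate 1 exceeded replicate 2 for 7 (background 3.55%). In IEC+/+, replicate 2 was the higher by over 2-fold for 7 members (background 3.37%) and replicate 1 for 2 (background 3.83%). These differences within groups are descriptions of single libraries and were not tested.

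What was called turned on which IEC-/- library was left out, the lone library being assumed to vary like the others. Without IEC-/- replicate 1, 4 members were called (Cxcl9, Cxcl10 and Cxcl15 higher, Ccl28 lower), beside 4.24% of all genes. Without IEC-/- replicate 2, 6 were called (Cxcl13 and Cx3cr1 higher, and Ccl28, Cxcl1, Cxcl2 and Cxcl5 lower), beside 3.32%. Ccl28 was the 1 gene on both lists. Without either IEC+/+ library, edgeR called 0 members and 0 genes of any kind, with 1 and 5 members at an unadjusted p under 0.05 without replicates 1 and 2.

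**Figure D2:**
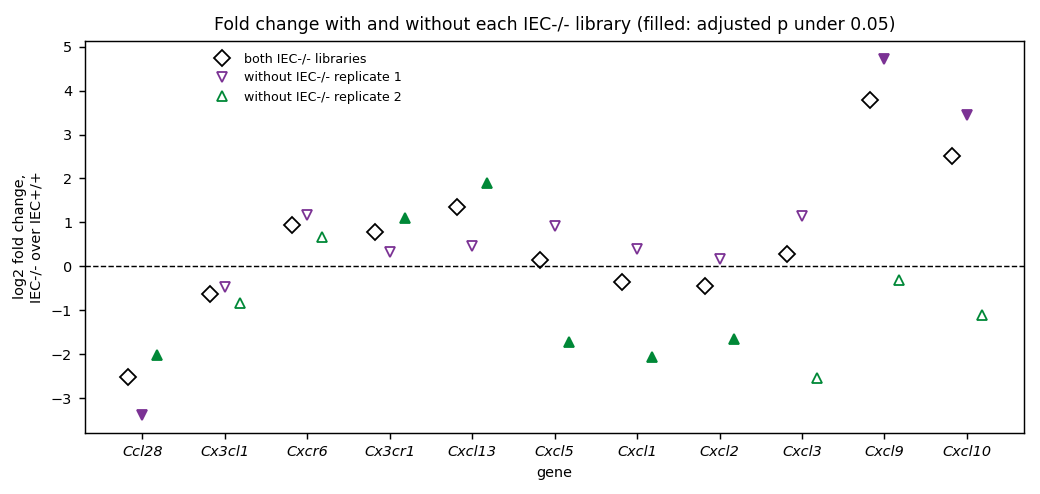
Log2 fold change (IEC-/- over IEC+/+, vertical axis) of 11 members fitted with both IEC-/- libraries (diamonds), without IEC-/- replicate 1 (triangles pointing down) and without IEC-/- replicate 2 (triangles pointing up); filled symbols passed an adjusted p under 0.05. Ccl28 stays below 0 in each, whereas Cxcl5, Cxcl1, Cxcl2, Cxcl3, Cxcl9 and Cxcl10 lie above 0 without replicate 1 and below 0 without replicate 2.

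Among the ligands made by mucosal epithelium, Ccl28 was lower in both IEC-/- libraries. Ccl28 (chromosome 13, 119623819 to 119654359, GRCm38), whose product draws IgA plasma cells through Ccr10, had 91.7 and 55.1 CPM (IEC+/+) and 18.3 and 7.09 CPM (IEC-/-). The groups did not overlap, though the libraries of each group also differed from each other. The group means of 73.4 ± 25.9 and 12.7 ± 7.93 CPM (SD, n = 2 each) came with a 5.77-fold lower fitted level (fitted log2 fold change -2.53, SE 0.49; edgeR adjusted p = 0.0953, so not called). As a ratio of IEC-/- to IEC+/+, the 95% interval ran from 0.0741 to 0.406. The adjusted p was 1.17e-06 by DESeq2 and 9.20e-05 by the exact test, and by edgeR it was 0.00920 and 0.0259 without IEC-/- replicates 1 and 2 and 0.557 and 0.297 without IEC+/+ replicates 1 and 2. General epithelial markers moved the same way. All 12 listed had lower means in IEC-/- (median log2 fold change -0.85), 2 of them, Krt20 and Lgals4, were called, 0 were at 0, and their summed level was 13051 and 11209 CPM (IEC+/+) and 7278 and 6812 CPM (IEC-/-). Their part in the Ccl28 difference was not tested.

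Among the other mucosal ligands and fractalkine, 0 were called. Ccl25, the ligand of the gut-homing receptor Ccr9, had 2.82 and 2.69 CPM (IEC+/+) and 1.44 and 2.33 CPM (IEC-/-). It was lower in both but with an adjusted p of 0.589 by edgeR. Exons of Ccl25 overlap those of Elavl1 on the other strand by 204 bases, and nothing states that reads were counted by strand. Ccl20, which draws Ccr6-bearing dendritic and T cells, had 2.70 and 5.41 against 2.41 and 4.04 CPM, so replicate 2 was the higher in each group. Ccl27a and Ccl27b are close copies, and the sources used here do not give how reads were shared among copies, so their separate values are uncertain. Ccl27a, another Ccr10 ligand, had 12.7 and 13.9 CPM (IEC+/+) and 19.2 and 8.69 CPM (IEC-/-), where the IEC-/- libraries lay on either side of IEC+/+, and Ccl27b had 0.540 to 1.15 CPM. Cx3cl1, the membrane-bound ligand known as fractalkine (chromosome 8, 94772180 to 94782427), had 86.7 and 68.9 CPM (IEC+/+) and 43.7 and 56.5 CPM (IEC-/-). Its groups did not overlap (fitted log2 fold change -0.63, SE 0.19, edgeR adjusted p = 0.195). The XC ligand gene Xcl1 had at most 0.267 CPM.

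Of the neutrophil-drawing ligands of Cxcr2, none of the 4 tested was called, and IEC-/- replicate 1 was the lowest and replicate 2 the highest or near it. Their genes, Cxcl5, Cxcl3, Cxcl15, Cxcl1 and Cxcl2, lie within 147 kb of chromosome 5 (90759298 to 90905938), and those of the interferon-induced ligands lie within 42.0 kb of the same chromosome (92321331 to 92363296). For each group of neighbours, the 250 bases before the RefSeq start are shown for 2 genes (GRCm38.p6, gene strand, 5′ to 3′). Whether these sequences bear on the levels was not tested. Capitals mark matches to a kappaB-type motif (GGGA, then NN for any pair of bases, then TTCC) or an interferon response element-type motif (GAAA, NN, GAAA), each searched on both strands:
Cxcl1 (chr5:90890995-90891244, plus strand): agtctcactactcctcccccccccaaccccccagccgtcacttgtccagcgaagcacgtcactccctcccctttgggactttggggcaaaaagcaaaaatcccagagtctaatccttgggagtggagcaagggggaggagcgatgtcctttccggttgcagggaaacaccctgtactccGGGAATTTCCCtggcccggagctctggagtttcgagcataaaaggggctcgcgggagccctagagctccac
Cxcl2 (chr5:90903649-90903898, plus strand): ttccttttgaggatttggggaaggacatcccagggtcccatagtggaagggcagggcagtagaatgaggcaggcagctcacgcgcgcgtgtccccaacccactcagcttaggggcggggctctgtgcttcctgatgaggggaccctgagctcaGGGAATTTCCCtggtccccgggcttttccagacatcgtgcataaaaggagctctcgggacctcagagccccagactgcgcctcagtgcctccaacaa
Cxcl9 (chr5:92328080-92328329, minus strand): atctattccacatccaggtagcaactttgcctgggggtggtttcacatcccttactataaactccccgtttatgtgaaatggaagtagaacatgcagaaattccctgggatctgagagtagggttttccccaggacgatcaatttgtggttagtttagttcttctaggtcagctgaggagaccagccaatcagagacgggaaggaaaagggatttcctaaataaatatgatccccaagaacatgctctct
Cxcl10 (chr5:92348890-92349139, minus strand): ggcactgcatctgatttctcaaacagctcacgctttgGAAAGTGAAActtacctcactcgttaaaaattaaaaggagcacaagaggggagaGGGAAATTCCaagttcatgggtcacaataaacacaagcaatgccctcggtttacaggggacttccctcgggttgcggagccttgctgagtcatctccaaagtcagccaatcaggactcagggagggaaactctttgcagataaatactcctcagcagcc

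In Cxcl1 and Cxcl2 the capitals are 1 run of letters that matches the kappaB-type motif on both strands, the matches overlapping, 71 to 61 and 97 to 87 bases before the start. Cxcl10 holds 1 kappaB-type match 159 to 150 bases before the start and 1 interferon response element-type match at 213 to 204, and the window of Cxcl9 holds neither. Of the windows available, the kappaB-type motif was in 3 of 4 for Cxcr2 ligands (Cxcl1, Cxcl2 and Cxcl3, not Cxcl15), in 6 of 53 for the family (11.3%) and in 397 of 32841 for all genes (1.21%). The interferon response element-type motif was in 3 of 53 family windows (Cxcl10, Cxcl14 and Ccl19) and in 2.98% of all windows. RefSeq windows were matched for 46 of the 62 members, and a match of letters is a description, not a bound site.

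Cxcl5 was the most abundant of the 60 members with an exon length when scaled per length, with a mean of 137 RPKM (CPM per kilobase of exon) in IEC+/+ and 150 RPKM in IEC-/-. In IEC-/- this rank rested on replicate 2: in replicate 1 Cxcl5 had 41.3 RPKM, below Cxcl14 at 146 RPKM and Ccl6 at 55.4 RPKM. It had 215 and 294 CPM (IEC+/+) and 77.0 and 483 CPM (IEC-/-), so both IEC+/+ libraries fell between the IEC-/- libraries, which differed 6.27-fold. The fitted log2 fold change was 0.14 (SE 0.77, edgeR adjusted p = 0.960). It was -1.73 without IEC-/- replicate 2 (adjusted p = 0.0176) and 0.91 without IEC-/- replicate 1 (0.0821). Cxcl1, the mouse keratinocyte chemoattractant, had 32.0 and 33.6 CPM (IEC+/+) and 7.84 and 43.7 CPM (IEC-/-). Cxcl2 had 30.8 and 44.3 against 12.0 and 42.7 CPM, and Cxcl3 had 8.38 and 20.7 against 2.52 and 32.5 CPM. In each of these, IEC-/- replicate 1 was the lowest library, with replicate 2 from 3.56-fold (Cxcl2) to 12.9-fold (Cxcl3) above it. Without IEC-/- replicate 2 the log2 fold changes of Cxcl1 and Cxcl2 were -2.07 and -1.66 (adjusted p = 0.0106 and 0.0328), and without replicate 1 they were 0.40 and 0.17 (0.275 and 0.787). Cxcl15 had 3 and 4 counts in IEC+/+ and 2 and 87 counts in IEC-/-.

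Between Cxcl5 and Cxcl3 on the chromosome lie Ppbp and Pf4, CXC chemokine genes best known from platelets, which were named here after their values were seen. Ppbp, whose product is another Cxcr2 ligand, had 5.02 and 9.88 CPM (IEC+/+) and 1.08 and 348 CPM (IEC-/-), or 30 and 9142 counts in the IEC-/- libraries. Its neighbour Pf4 had 14.6 and 10.0 against 7.62 and 10.4 CPM, so it did not share the difference. The receptor Cxcr2, carried mainly by neutrophils, had 8.38 and 10.4 CPM (IEC+/+) and 5.25 and 15.7 CPM (IEC-/-), the same order of libraries as Cxcl5. Neutrophil markers had this order in their sum only with Ly6g included, and not gene by gene. Their summed level over 14 genes was 231 and 317 CPM (IEC+/+) and 186 and 441 CPM (IEC-/-), with Elane at 0 in all libraries, and 8 of 11 tested had higher means in IEC-/- (median log2 fold change 0.73, and -0.39 without IEC-/- replicate 2). Ly6g, a neutrophil surface protein gene within that sum, was called lower in IEC-/- (66.4 and 62.5 against 12.2 and 15.2 CPM). Its log2 fold change was -2.23 (SE 0.16, edgeR adjusted p = 0.0322), so it lowered the sum of both IEC-/- libraries. Ly6g differed more between replicate 1 of IEC+/+ and replicate 1 of IEC-/- than the sums did. Without Ly6g, the sum of IEC-/- replicate 1 would not be the lowest. S100a9 was instead lowest in IEC+/+ replicate 1 (17.5 and 54.3 against 34.0 and 166 CPM). S100a8, Csf3r, Retnlg, Mmp8 and Ngp were also lowest there, whereas Il1r2, Fpr1 and Fpr2 were lowest in IEC-/- replicate 1. Mmp9 was lowest in IEC-/- replicate 2 (107 and 105 against 81.3 and 48.7 CPM). Genes other than Ly6g were named after their values were seen. The part of neutrophil content in the ligand and receptor levels was not tested.

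**Figure D3:**
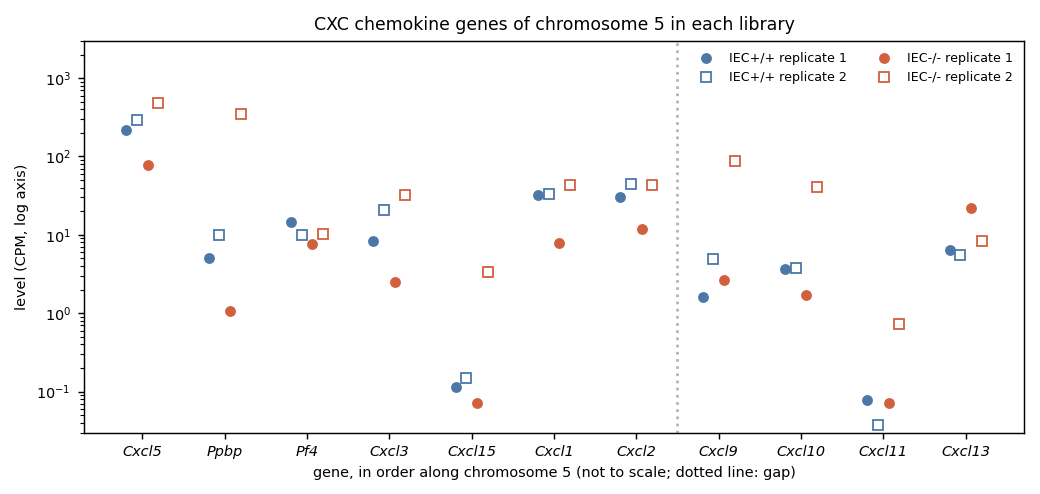
Level in CPM (log axis) of the CXC chemokine genes of chromosome 5, in chromosomal order, in each of the 4 libraries (blue IEC+/+, orange IEC-/-, filled circles replicate 1, open squares replicate 2). IEC-/- replicate 1 is lowest and replicate 2 highest or close to it for Cxcl5, Ppbp, Cxcl3, Cxcl15, Cxcl1 and Cxcl2; Cxcl9, Cxcl10 and Cxcl11 stand out in IEC-/- replicate 2 alone, and Cxcl13 is highest in replicate 1.

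The interferon-induced ligands of Cxcr3 were high in 1 library. Cxcl9 had 1.62 and 4.96 CPM (IEC+/+) and 2.66 and 88.5 CPM (IEC-/-). Cxcl10 had 3.67 and 3.82 CPM (IEC+/+) and 1.73 and 41.0 CPM (IEC-/-). Cxcl11, which RefSeq lists as a transcribed pseudogene, had 2 and 1 counts against 2 and 19. IEC-/- replicate 2 was the highest library for all 3 genes, 33.2-fold and 23.7-fold above replicate 1 for Cxcl9 and Cxcl10, while replicate 1 lay within or below the IEC+/+ libraries for those 2. The fitted log2 fold changes were 3.79 (SE 1.53, edgeR adjusted p = 0.304) for Cxcl9 and 2.51 (SE 1.27, adjusted p = 0.407) for Cxcl10. Without IEC-/- replicate 1 they were 4.73 and 3.44 (adjusted p = 0.00916 and 0.00309), and without replicate 2 they were -0.31 and -1.12 (0.879 and 0.325). Exons of Cxcl10 overlap those of Art3 on the other strand by 133 bases, and nothing states that reads were counted by strand.

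The receptor of these ligands and the summed markers of T and NK cells showed less of this pattern. Cxcr3 had 1.70 and 0.568 CPM (IEC+/+) and 0.935 and 2.25 CPM (IEC-/-). Markers of T and NK cells summed to 33.3 and 32.0 CPM (IEC+/+) and 37.2 and 50.5 CPM (IEC-/-) over 15 genes, with 0 of the 9 tested called (median log2 fold change 0.28, and 0.73 without IEC+/+ replicate 1). Ifng, the interferon gamma gene, chosen after its values were seen, had 0.724 CPM in IEC-/- replicate 2 and was listed at 0 in the other 3. Their part in the ligand levels was not tested.

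The remaining CXC ligands, which act largely in tissue upkeep and lymphoid organisation, numbered 4 tested genes, Cxcl12, Cxcl13, Cxcl14 and Cxcl16, with 0 called. Cxcl13, the B cell-drawing ligand of Cxcr5, had 6.37 and 5.52 CPM (IEC+/+) and 22.2 and 8.23 CPM (IEC-/-). Both IEC-/- libraries lay above IEC+/+, replicate 1 by far the more (fitted log2 fold change 1.36, SE 0.49, edgeR adjusted p = 0.264). Without IEC-/- replicate 2 the value was 1.90 (adjusted p = 0.0216), and without replicate 1 it was 0.46 (0.547). Cxcr5 went the other way, with 1.16 and 1.74 CPM (IEC+/+) and 0.575 and 0.686 CPM (IEC-/-; fitted log2 fold change -1.20, SE 0.52, adjusted p = 0.339), and its exons overlap those of Bcl9l on the other strand. Markers of B and plasma cells went both ways, with higher means in IEC-/- for 6 of 11 tested genes and lower for 5.

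Cxcl14, a ligand abundant in epithelia and stroma, had 177 and 143 CPM (IEC+/+) and 267 and 173 CPM (IEC-/-). With means of 87.4 and 120 RPKM it was second to Cxcl5 by group mean among the 60 members with an exon length. Ccl21c, with means of 70.7 and 106 CPM, had no exon length and so was not ranked. In IEC+/+ its libraries (96.7 and 78.2 RPKM) lay below those of Cxcl5 (115 and 158 RPKM) but overlapped those of Ccl6 (67.1 and 78.4 RPKM). In IEC-/- the order of Cxcl14 and Cxcl5 differed between libraries, with 146 against 41.3 RPKM in replicate 1 and 94.9 against 259 RPKM in replicate 2. Cxcl12, the stromal ligand of Cxcr4, had 39.7 and 26.6 against 36.5 and 31.8 CPM, and its receptor Cxcr4 had 20.1 and 18.0 against 20.0 and 19.0 CPM. The IEC-/- values of Cxcl12 and Cxcr4 thus lay within or at the edge of the IEC+/+ range. The 95% interval of the log2 fold change was -0.51 to 0.60 for Cxcl12 and -0.42 to 0.48 for Cxcr4. Cxcl16, the membrane-bound ligand of Cxcr6, had 48.7 and 50.5 CPM (IEC+/+) and 51.6 and 59.0 CPM (IEC-/-; fitted log2 fold change 0.16, SE 0.13), with exons shared in part with Zmynd15 on the other strand. Cxcl17 had at most 0.343 CPM.

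Among CC ligands that draw monocytes and T cells through receptors such as Ccr1 and Ccr2, 9 were tested and 0 called, 6 with higher and 3 with lower means in IEC-/-. Ccl5, made by T and NK cells, had 0.502 and 0.643 CPM (IEC+/+) and 0.935 and 3.13 CPM (IEC-/-), without overlap (fitted log2 fold change 1.82, SE 0.72, edgeR adjusted p = 0.296). Without IEC-/- replicate 2 this was 0.70 (adjusted p = 0.754). Ccl8 also lay higher in both, at 4.79 and 3.41 against 5.07 and 7.66 CPM (adjusted p = 0.459). Ccl2, the main monocyte chemoattractant, had 5.75 and 12.4 CPM (IEC+/+) and 3.06 and 18.3 CPM (IEC-/-). Its neighbour Ccl7 had 8.41 and 12.2 against 2.77 and 8.42 CPM. For both, replicate 2 was the higher library of each group, as for Cxcl3 above. Ccl12, a further Ccr2 ligand, had 0.425 and 2.01 against 1.73 and 2.97 CPM.

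Ccl3 and Ccl4, the macrophage inflammatory proteins, also had replicate 2 as the higher library of each group. Ccl3 had 2.12 and 2.65 CPM (IEC+/+) and 2.19 and 3.39 CPM (IEC-/-), and Ccl4 had 0.386 and 3.07 against 0.647 and 2.74 CPM. In Ccl4 the libraries of a group differed more than the groups, whose means were 1.73 ± 1.89 and 1.70 ± 1.48 CPM (SD, n = 2 each). Ccl6 and Ccl9 are ligands of Ccr1 made by myeloid cells, and per length Ccl6 was the most abundant of the 9 in all 4 libraries. Ccl6 had 120 and 141 CPM (IEC+/+) and 99.4 and 126 CPM (IEC-/-), and Ccl9 had 13.4 and 24.3 against 27.2 and 22.3 CPM, so both overlapped. The 95% interval of the log2 fold change of Ccl6 was -0.62 to 0.20.

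Ligands of Ccr3, the eosinophil receptor, were low. Ccl11, or eotaxin, had 5.91 and 14.2 CPM (IEC+/+) and 4.89 and 9.95 CPM (IEC-/-), and Ccl24 had 1.70 and 0.908 against 0.791 and 0.457 CPM. The groups of Ccl24 did not overlap (fitted log2 fold change -1.05, SE 0.61, edgeR adjusted p = 0.462). Ccr3 had 6 and 0 counts in IEC+/+ and 0 and 8 in IEC-/-, too few to compare.

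Ligands that guide dendritic cells and T cells to lymphoid tissue or type 2 sites showed no common direction. Ccl21a, Ccl21b and Ccl21c encode near-identical ligands of Ccr7, so their separate values are uncertain. They had 30.1, 23.9 and 92.0 CPM in IEC+/+ replicate 1 and 17.5, 12.3 and 49.3 CPM in replicate 2. In IEC-/- they had 24.5, 15.5 and 61.7 CPM in replicate 1 and 46.0, 37.7 and 150 CPM in replicate 2. All 3 thus ranked the libraries alike, with IEC-/- replicate 2 highest and IEC+/+ replicate 2 lowest. Their receptor Ccr7 had 3.09 and 5.41 against 3.96 and 2.13 CPM. Ccl22 and Ccl17, the ligands of Ccr4, had 6.60 and 8.97 against 6.62 and 4.38 CPM and 1.20 and 1.25 against 1.65 and 0.572 CPM. Ccr4 had 0.965 and 1.48 against 1.73 and 0.305 CPM, so all 3 were lowest in IEC-/- replicate 2. Ccl1 had at most 3 counts, and its receptor Ccr8 had 0.396 to 0.695 CPM.

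**Figure D4:**
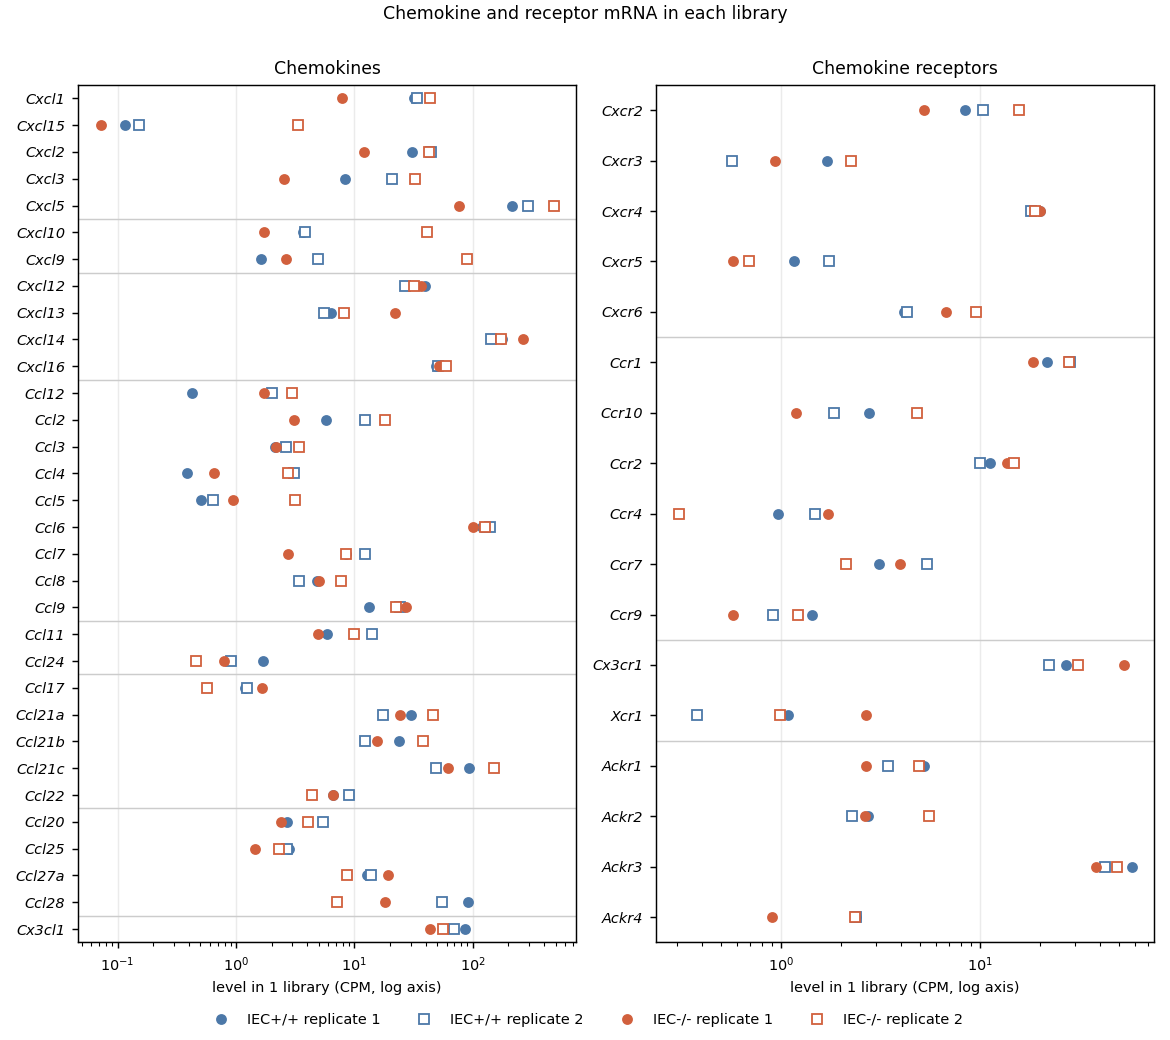
Level in CPM (log axis) in each of the 4 libraries for 49 of the 50 members whose higher group averaged at least 1 CPM, ligands on the left and receptors on the right, with grey lines between roles (blue IEC+/+, orange IEC-/-, filled circles replicate 1, open squares replicate 2). Ccl28 and Cx3cl1 are lower in both IEC-/- libraries, Cxcr6 and Cx3cr1 higher in both, and the Cxcr2 and Cxcr3 ligands are spread widely between the IEC-/- libraries.

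Of 21 receptors tested 0 were called, with 4 above and 2 below IEC+/+ in both IEC-/- libraries, where 24.0% and 24.1% of all genes were. Cxcr6, Cx3cr1 and Ccr2 were among the 4. Cxcr6, carried by tissue-resident T cells (chromosome 9, 123806477 to 123811754), had 4.13 and 4.31 CPM (IEC+/+) and 6.76 and 9.57 CPM (IEC-/-; fold change on the log2 scale 0.95, SE 0.31, edgeR adjusted p = 0.228). Cx3cr1, the fractalkine receptor of intestinal macrophages (chromosome 9, 120048683 to 120068296), had 27.1 and 22.2 CPM (IEC+/+) and 53.0 and 31.0 CPM (IEC-/-; fold change on the log2 scale 0.77, SE 0.28, adjusted p = 0.268). Its ligand Cx3cl1 lay the other way. Ccr2, which marks incoming monocytes, had 11.2 and 10.0 against 13.7 and 14.9 CPM, or 0.43 on the log2 scale (SE 0.21, adjusted p = 0.395). For these 3 receptors the groups did not overlap, and the libraries of a group were close to each other except for Cx3cr1 and Cxcr6 in IEC-/-. Cx3cr1 was called without IEC-/- replicate 2 (fitted log2 fold change 1.10, adjusted p = 0.0339) and was 0.32 without replicate 1 (0.505).

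Most, but not all, markers of macrophages and monocytes had higher means in IEC-/-. Of 14 such genes tested 10 were higher (median log2 fold change 0.45, and 0.23 without IEC-/- replicate 1) and 0 were called. At an unadjusted p under 0.05, 5 were higher, among them Itgam and Lyz2 (background 7.50% of all genes). The 4 lower genes, named after their values were seen, were Ly6c2 (log2 fold change -0.87), Cd14 (-0.72), Mertk (-0.29) and Mrc1 (-0.22). Ly6c2, a monocyte marker, had 11.0 and 9.04 against 1.98 and 9.03 CPM. Their summed level was 1010 and 957 CPM (IEC+/+) and 1515 and 1157 CPM (IEC-/-), and 0 of them were at 0. Their part in the receptor levels was not tested. Ccr1, a further myeloid receptor, had 21.6 and 28.4 against 18.4 and 28.0 CPM and so overlapped. Xcr1, the receptor of cross-presenting dendritic cells, had 1.08 and 0.378 against 2.66 and 0.991 CPM, with replicate 1 the higher in each group (fitted log2 fold change 1.32, SE 0.76, adjusted p = 0.460).

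Ccr9, Ccr10, Ccr6 and Cxcr1 were low and overlapped between groups. Ccr9 had 1.43 and 0.908 CPM (IEC+/+) and 0.575 and 1.22 CPM (IEC-/-). Ccr10, the receptor of Ccl28, had 2.78 and 1.85 against 1.19 and 4.84 CPM, so it did not follow its ligand. Ccr6 had 14 and 15 counts in IEC+/+ and 37 and 2 in IEC-/-, and Cxcr1 had 0 and 14 against 13 and 8. For the latter pair no difference was detectable at this depth, the 95% interval of the log2 fold change being -2.47 to 3.17 for Ccr6 and -2.74 to 3.81 for Cxcr1.

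Of the 4 atypical receptors, which bind chemokines without G protein signalling and clear or carry them, 0 were called. Ackr3, which takes up Cxcl12, had 57.9 and 42.7 CPM (IEC+/+) and 38.3 and 48.7 CPM (IEC-/-), and was the most abundant receptor per length at means of 15.0 and 13.0 RPKM. Cxcr4 followed by group mean at 10.5 and 10.8 RPKM, and the libraries of the 2 receptors did not overlap in either group. The order was not the same in every library. In IEC-/- replicate 1, Cx3cr1 had 11.8 RPKM, above Ackr3 (11.5) and Cxcr4 (11.0). In IEC+/+ replicate 2, Ccr1 had 10.0 RPKM beside 9.94 for Cxcr4. Ackr1, the Duffy receptor of venules, had 5.25 and 3.44 against 2.66 and 4.92 CPM. Ackr2, a scavenger of CC ligands, had 2.74 and 2.27 against 2.63 and 5.57 CPM. Ackr4, which takes up Ccl21 and Ccl25, had 2.39 and 2.38 against 0.899 and 2.36 CPM. Only in Ackr4 of these 4 were both IEC-/- libraries below IEC+/+, replicate 2 barely so. Exons of Ackr1 overlap those of Cadm3 and exons of Ackr4 those of Acad11.

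Genes around the family were taken from lists. Of 36 tested genes of signalling behind chemokine receptors, 0 were called (median log2 fold change 0.04). At an unadjusted p under 0.05, 5 were above and 4 below their IEC+/+ level, where 7.50% and 9.12% of all genes were. Pik3cg, the kinase that leukocytes use downstream of these receptors, had 21.7 and 23.3 CPM (IEC+/+) and 38.2 and 39.5 CPM (IEC-/-; log2 fold change 0.79, SE 0.14, edgeR adjusted p = 0.0754). Plcb3, a phospholipase of the same pathway, had 298 and 257 against 179 and 134 CPM, which is -0.83 on the log2 scale (SE 0.18, adjusted p = 0.113). Among 19 genes that present or cleave chemokines 0 were called, 2 being higher and 1 being lower at an unadjusted p under 0.05 (median 0.10). The aminopeptidase gene Anpep had 22.9 and 15.2 CPM (IEC+/+) and 47.5 and 60.8 CPM (IEC-/-; log2 fold change 1.51, SE 0.24, adjusted p = 0.0678). Of 28 cytokines and factors that induce chemokines 0 were called, 1 being higher (Csf1) and 1 lower (Bcl3) at an unadjusted p under 0.05 (median -0.02). Of 9 chemokine-like genes outside the symbol rule 0 were called, with Gpr182 higher and Gpr35 lower at an unadjusted p under 0.05 (median 0.50, and -0.21 without IEC-/- replicate 2). The signalling and presentation medians were -0.03 and -0.01 without IEC+/+ replicate 2, and the inducer median was 0.08 with total counts. Limma-voom, the exact test and DESeq2 calls were counted for the family, not for these lists.

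Other cell types that make or answer chemokines gave these values. Endothelial markers had higher means in IEC-/- for 9 of 9 genes (median 0.27) and lymphatic endothelial markers for 5 of 6 (median 0.50), while smooth muscle markers were lower for 8 of 8 (median -0.65) and fibroblast markers for 8 of 10 (median -0.33). Over all genes tested, 8571 of 16637 had higher means in IEC-/-. In none of these 4 lists was a gene called by edgeR, beside 0.884% of all genes. At an unadjusted p under 0.05 there were 1, 3, 2 and 2 genes. Over all genes, for these lists and those below, 7.50% were higher and 9.12% lower at that limit. Without IEC+/+ replicate 1 the medians of the smooth muscle and fibroblast lists were 0.19 and 0.04. Dendritic cell (median 0.09, 11 genes), B and plasma cell (0.13, 11 genes), mast cell (0.77, 10 genes), eosinophil (-0.18, 2 genes) and platelet lists (0.43, 4 genes) likewise had 0 called, with 2, 0, 4, 1 and 2 genes at an unadjusted p under 0.05. The eosinophil and platelet medians were 1.33 and -0.38 with no low-count filter, and the dendritic cell and B and plasma cell medians 0.37 and 0.80 with at least 1 CPM in 2 libraries. The B and plasma cell, platelet and mast cell medians were -0.82, -0.51 and 0.17 without IEC-/- replicate 2. Among plasma cell genes, Jchain had 567 and 678 CPM (IEC+/+) and 215 and 2471 CPM (IEC-/-), again with the IEC-/- libraries on either side, and was named after its values were seen.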

How the data were processed

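Polyadenylated RNA was sequenced from 4 mouse colon tumour libraries (NEBNext Ultra kit, paired reads, per the labels' protocols). The authors deposited raw read counts, 1 whole number for each gene symbol and library. Named in the submitters' processing notes are build mm10 and the tools TopHat, edgeR and limma, with no version; the counting tool, annotation and use of strand are not given in the sources used here.

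Counts of all 26214 symbols were fitted together with edgeR 4.0.16 (R 4.3.3): default expression filter (16637 genes kept), TMM scaling (factors 0.955 to 1.05), a quasi-likelihood F-test for genotype alone, and Benjamini-Hochberg adjustment over all genes tested, called under 0.05. Alternatives were other scalings and filters, DESeq2 1.42.0, the exact test of edgeR, limma-voom 3.58.1, the replicate number as a block, and each library left out. Standard errors came from the F statistic, and intervals cover 95%. Differences between libraries of a group used log2 CPM with a prior count of 2. Exon lengths came from GENCODE M21 (60 of 62 members), coordinates and sequences from RefSeq, both on GRCm38, which is mm10. The test was checked on simulated counts with the spread fitted to each gene, over genes of any kind. It called 27.3% of genes given a log2 change of 1, 78.7% of those given 2, and 0.154% of unchanged genes. In counts, 76 unchanged genes were called beside 41, 118, 136 and 145 genes given a log2 change of 1, 2, 3 and 4. False calls were thus a larger share of all calls than the 0.05 at which genes were called. Most changes of 2-fold would thus be missed. The members spread more between libraries of a group than genes at large, so for them the shares detected may be lower.

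No library repeated another: the chi-square of their counts over its degrees of freedom was 33.8 (IEC+/+ pair) and 66.6 (IEC-/- pair). Members and lists were chosen with earlier results of these data known. Values in every library were to be given for members whose higher group averaged at least 1 CPM or whose unadjusted p was under 0.05. Of other genes, Gsk3b, called genes and up to 2 per list with the smallest p were to be named; further ones are marked. Members were left out of the marker lists. A planned comparison of protein motifs was not made. The values of 1 member are not reported here.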

Additional observations from a re-analysis of the deposited data

How the results depend on the processing

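Low counts (Ccr6 and Cxcr1 among the tested genes) and 2 libraries a group limit these results. The number of members called was 0 with median-of-ratios scaling, with total counts, with at least 1 CPM in 2 libraries and by limma-voom. It was 1, Ccl28 each time, with no low-count filter, by DESeq2, by the exact test and with the replicate block, and 0 to 6 with a library left out. Members at an unadjusted p under 0.05 numbered 4 by limma-voom and 1 to 16 with a library left out, against 7. All genes called numbered 83 with total counts, 376 with no filter, 1303 by DESeq2, 882 by the exact test, 78 by limma-voom and 0 to 729 with a library left out, against 147; total counts moved the median of all genes from 0.01 to 0.12. The median log2 fold change of the family was 0.16, was -0.02 by limma-voom and -0.03 with the replicate block, and ran from -0.24 (without IEC-/- replicate 2) to 0.23 with a library left out. The replicate block gave 211 calls over all genes, and same-numbered libraries share only a number (correlation of their deviations 0.160 over genes, 2 numbers). Why values changed was not tested.

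With all libraries, 0 of the 53 members were called by the main test. Under every alternative in which they were fitted, 24 members kept their direction, and 29 did not. By limma-voom the sign turned for Ccl2 (-0.20), Ccl27a (-0.02), Ccl4 (0.25), Ccr6 (-0.64), Cxcl3 (-0.58), Cxcl5 (-0.39) and Cxcr2 (-0.06). With the replicate block it turned for the same genes, at -0.14, -0.03, 0.22, -0.27, -0.46, -0.38 and -0.03, and with total counts for Ccl4 (0.07). With a library left out, log2 fold changes ran from -0.71 to 0.17 for Ackr1, from -0.41 to 0.02 for Ackr3, from -1.05 to 0.33 for Ccl11, from -1.10 to 0.43 for Ccl17, from -1.57 to 1.00 for Ccl2, from -0.76 to 0.25 for Ccl20, from -0.23 to 1.10 for Ccl21b, from -0.20 to 1.10 for Ccl21c, from -0.62 to 0.53 for Ccl27a, from -0.01 to 0.76 for Ccl27b, from -0.13 to 0.50 for Ccl3, from -1.42 to 2.12 for Ccl4, from -0.45 to 0.15 for Ccr1, from -0.97 to 1.05 for Ccr10, from -2.00 to 0.49 for Ccr4, from -2.80 to 1.25 for Ccr6, from -0.64 to 0.09 for Ccr8, from -1.02 to 0.05 for Ccr9, from -2.07 to 0.40 for Cxcl1, from -1.12 to 3.44 for Cxcl10, from -0.22 to 0.36 for Cxcl12, from -1.66 to 0.17 for Cxcl2, from -2.54 to 1.15 for Cxcl3, from -1.73 to 0.91 for Cxcl5, from -0.31 to 4.80 for Cxcl9, from -0.45 to 6.38 for Cxcr1, from -0.85 to 0.73 for Cxcr2, from -0.28 to 1.47 for Cxcr3 and from -0.05 to 0.11 for Cxcr4.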
